A study of Mus musculus with 6 samples.

Results

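The genes described are 10 subunits of voltage-gated calcium channels, 4 pore-forming alpha1 subunits (Cacna1a, Cacna1c, Cacna1d and Cacna1g), 3 alpha2delta subunits (Cacna2d1, Cacna2d2 and Cacna2d3) and 3 beta subunits (Cacnb2, Cacnb3 and Cacnb4). They were chosen by name, as 10 of the 23420 rows of the gene count matrix, together with the 784 splice junctions, of 419327 in all, that lie inside them. The RNA was bound to ribosomes of cerebellar Purkinje neurons and came from 4-week-old C57BL/6 mice. All 6 animals carried Pcp2-BacTRAP, a transgene that puts a GFP-tagged ribosomal protein under the promoter of the Purkinje gene Pcp2, so that tagged ribosomes can be pulled down with antibodies to GFP. The 3 conditional knockout (cKO) animals also carried Pcp2-Cre, 1 floxed allele of Rbm17 and 1 null allele (Rbm17 f/-). The 3 control animals carried 1 floxed and 1 wild-type allele (Rbm17 f/+), with no Cre. Each library was made from 1 cerebellum. Controls had neither the Cre transgene nor a null allele, so the groups differ by both. Rbm17 encodes a splicing factor of the early spliceosome, and the series title names cryptic splicing after its loss.

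A voltage-gated calcium channel is built around an alpha1 subunit, which forms the pore and opens when the membrane depolarises. The alpha2delta subunit, on the outer face of the membrane, and the beta subunit, on the inner face, bring the pore to the cell surface and tune its gating. In Purkinje neurons most calcium current is of the P/Q type, through the pore that Cacna1a encodes, and the product of Cacna1g carries a T-type current at more negative voltages. Mice with mutations in Cacna1a (tottering), Cacna2d2 (ducky) or Cacnb4 (lethargic) are ataxic.

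Rbm17 itself was at 25.7, 25.5 and 26.3 CPM (read counts scaled to library size) in cKO libraries, against 41.1, 42.5 and 41.3 CPM in control libraries. A library held 140110897 to 160571518 gene counts, and between 73457422 and 83976095 reads per library crossed a splice junction. Over all genes tested 3.85% fell and 4.03% rose in cKO, by the test given below. Of 27 Purkinje cell markers 14 fell and 0 rose. Their summed level was 24371 to 27710 CPM in cKO libraries, against 38199 to 50802 CPM in control libraries. Pcp2, whose promoter drives the tag and Cre, was at 317, 421 and 459 CPM in cKO libraries, against 1098, 1044 and 1013 CPM in control libraries. Of 18 markers of microglia and macrophages 8 rose, with a summed level of 131 to 218 CPM in cKO libraries, against 66.7 to 102 CPM in control libraries. Granule cell markers (16 tested), interneuron markers (12) and endothelial markers (12) held 0 called genes by edgeR, with 3, 1 and 0 below an unadjusted p of 0.05 and 3, 0 and 0 called by DESeq2. Of 14 astrocyte and Bergmann glia markers 1 rose and 2 fell, and of 16 oligodendrocyte markers 1 fell. No marker in these lists was at 0 in all libraries, and the part of these shifts in the levels below was not tested. In tissue pull-downs of this kind, fewer Purkinje cells and less RNA per cell cannot be told apart.

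Of the 10 subunit genes, 3 fell in cKO (Cacna2d2, Cacnb4 and Cacna1g), 0 rose and 7 did not pass the test. A gene was called at an adjusted p under 0.05 (edgeR quasi-likelihood test, Benjamini-Hochberg over the 16067 genes tested), and 7.87% of all genes were called, 3.85% as lower and 4.03% as higher in cKO. DESeq2 also called 3 subunit genes, against 12.7% of all genes. The fold change lay below 1 for 8 of the 10, and their median log2 fold change was -0.22, against 0.0063 over all genes tested. In 5 of the 10 every cKO library lay below every control library, as was so for 13.4% of all genes tested.

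**Figure D1:**
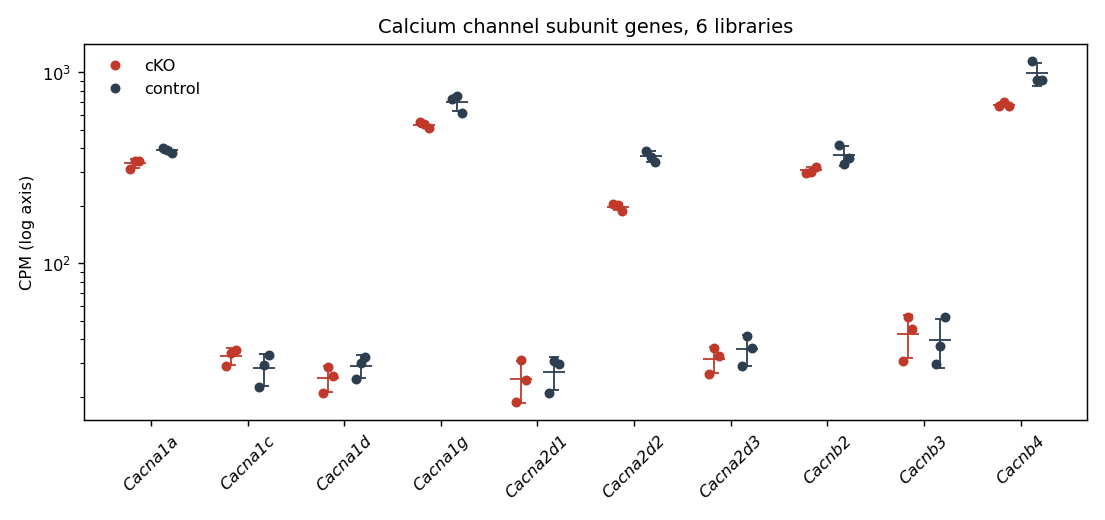
Level of each subunit gene in CPM (log axis) in the 3 cKO libraries (red, left) and the 3 control libraries (dark, right), with each group's mean and SD. The groups do not overlap for Cacna1a, Cacna1g, Cacna2d2, Cacnb2 and Cacnb4, which are the 5 genes above 100 CPM in every library.

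Levels were also set per kilobase of annotated exon, so that genes can be compared. In cKO libraries Cacnb4 averaged 75.4, Cacna1g 52.3, Cacna1a 29.1, Cacna2d2 24.9 and Cacnb2 23.1 CPM per kb. In control libraries Cacnb4 averaged 110, Cacna1g 68.4, Cacna2d2 45.6, Cacna1a 34.1 and Cacnb2 27.8 CPM per kb. Cacna2d2 thus stood above Cacna1a in control libraries and below it in cKO libraries. The other 5 followed, with Cacnb3 at 10.6 CPM per kb in cKO libraries and 9.86 in control libraries. Cacna2d3 was at 3.63 and 4.07, and Cacna1d, Cacna2d1 and Cacna1c each lay between 1.33 and 2.30 CPM per kb in either group. Between neighbours in the control order, the ranges over control libraries overlapped only for Cacna1d and Cacna2d1. Over cKO libraries they overlapped for that pair and for Cacna2d1 and Cacna1c. Neighbours in the cKO order alone also overlapped there: Cacna2d2 with Cacnb2 (23.6 to 25.7 and 22.5 to 24.2 CPM per kb), and Cacna1d with Cacna1c. The order rests on the exon length used: with the longest coding transcript in place of all annotated exons, 4 of the 10 genes kept their place.

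Among the pore-forming subunits, Cacna1g (chr11:94408391-94474198, minus strand, build mm10), which encodes the T-type pore Cav3.1, had 545, 532 and 513 CPM in cKO libraries, against 719, 747 and 615 CPM in control libraries. The groups did not overlap, and cKO was lower. The log2 fold change was -0.39 (SE 0.10, 95% interval -0.60 to -0.18, n = 3 per group, edgeR adjusted p = 0.0346). The call held in 1 of 6 fits that each left out a library, the one without control 3. In the other 5 fits its adjusted p was between 0.0536 and 0.155, so the call rests on all these libraries together.

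Cacna1a (chr8:84388440-84640246, plus strand), the P/Q-type pore, had 312, 345 and 342 CPM in cKO libraries, against 399, 392.4 and 378 CPM in control libraries. The groups did not overlap, with cKO lower, but the difference did not pass the test, with a log2 fold change of -0.23 (SE 0.08, 95% interval -0.41 to -0.04, edgeR adjusted p = 0.139). Cacna1c (chr6:118587240-119196418, minus strand) and Cacna1d (chr14:30039939-30491455, minus strand) encode the L-type pores Cav1.2 and Cav1.3 and were low. Cacna1c had 29.1, 33.8 and 35.1 CPM in cKO libraries, against 22.5, 29.2 and 33.1 CPM in control libraries. Cacna1d had 20.9, 28.8 and 25.6 CPM in cKO libraries, against 24.8, 29.9 and 32.4 CPM in control libraries. In both genes the groups overlapped. Their log2 fold changes were 0.21 for Cacna1c (95% interval -0.11 to 0.53, edgeR adjusted p = 0.456) and -0.21 for Cacna1d (95% interval -0.53 to 0.11, edgeR adjusted p = 0.442).

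Cacna2d2 (chr9:107399612-107529343, plus strand), the alpha2delta subunit that is mutated in ducky mice, was the most changed member. It had 204, 201 and 188 CPM in cKO libraries, against 387, 361 and 339.5 CPM in control libraries. The highest cKO library lay far below the lowest control library. The log2 fold change was -0.87 (SE 0.09, 95% interval -1.07 to -0.68, edgeR adjusted p = 4.4e-04), a level 0.55 times that of control. This call held in 6 of 6 fits that left out a library and in all 8 other settings tried. Genes on the opposite strand are annotated over Cacna2d2 and Cacnb4 but not over Cacna1g, and whether counting used strand is not given in the sources used here.

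Cacna2d1 (chr5:15934691-16374511, plus strand) and Cacna2d3 (chr14:28904943-29721864, minus strand) encode related alpha2delta subunits. Cacna2d1 had 18.7, 31.1 and 24.4 CPM in cKO libraries, against 20.99, 30.7 and 29.7 CPM in control libraries. Cacna2d3 had 26.3, 35.9 and 32.7 CPM in cKO libraries, against 29.0, 41.7 and 35.8 CPM in control libraries. The groups overlapped in both. The log2 fold changes were -0.13 (95% interval -0.56 to 0.30, edgeR adjusted p = 0.760) for Cacna2d1 and -0.17 (95% interval -0.51 to 0.17, edgeR adjusted p = 0.594) for Cacna2d3. Within each library the ratio of Cacna2d2 to Cacna2d1 reads was 10.9, 6.47 and 7.70 in cKO and 18.5, 11.8 and 11.4 in control. Every cKO value was below every control value (exact permutation p = 0.1, the smallest that 3 against 3 allows).

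Of the beta subunits, Cacnb4 (chr2:52428320-52676831, minus strand), mutated in lethargic mice, had 661, 699 and 668 CPM in cKO libraries, against 1142.5, 908 and 906 CPM in control libraries. The 2 groups did not overlap, with cKO lower, and control 1 was the highest of the 6. The log2 fold change was -0.54 (SE 0.11, 95% interval -0.78 to -0.31, edgeR adjusted p = 0.0123). The call held in 5 of 6 fits that left out a library, and without cKO 3 its adjusted p was 0.0724.

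Cacnb2 (chr2:14603088-14987908, plus strand) had 297, 300.1 and 320.3 CPM in cKO libraries, against 415, 329.9 and 357 CPM in control libraries. The groups did not overlap, with cKO lower, and the log2 fold change of -0.26 (SE 0.10, 95% interval -0.49 to -0.04) did not pass the test (edgeR adjusted p = 0.153). Cacnb3 (chr15:98630840-98644529, plus strand) had 30.9, 52.2 and 45.02 CPM in cKO libraries, against 29.8, 36.9 and 52.0 CPM in control libraries. These groups overlapped, with a log2 fold change of 0.11 (95% interval -0.38 to 0.60, edgeR adjusted p = 0.827). Within each library the ratio of Cacnb4 to Cacnb3 reads was 21.4, 13.4 and 14.8 in cKO and 38.4, 24.6 and 17.4 in control. These ratios overlapped (exact permutation p = 0.2).

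**Figure D2:**
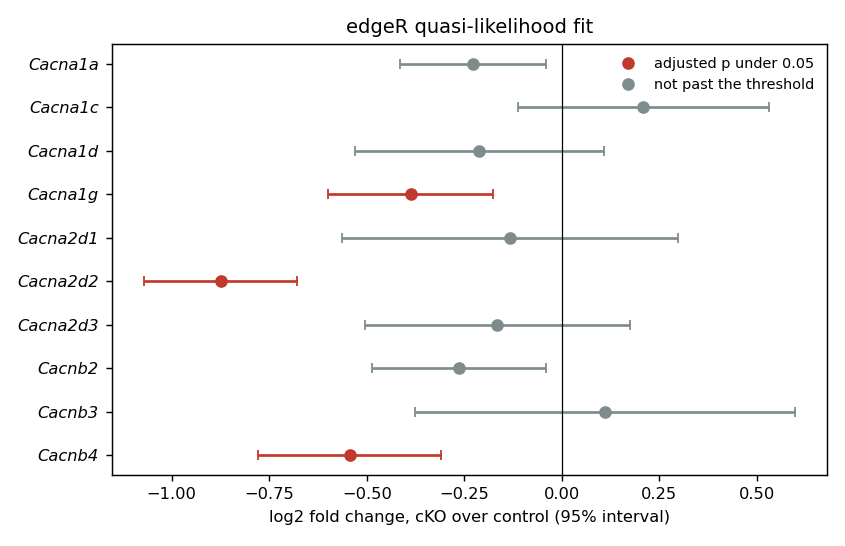
Log2 fold change of cKO over control for each subunit gene with its 95% interval from the edgeR fit, in red where the adjusted p is under 0.05. Cacna2d2 lies at -0.87, Cacnb4 at -0.54 and Cacna1g at -0.39, and the other 7 lie between -0.26 and 0.21.

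The members did not all move by the same factor. The ratio of Cacna2d2 to Cacna1a reads was 0.655, 0.584 and 0.550 in cKO libraries, against 0.972, 0.919 and 0.899 in control libraries. The ratio of Cacnb4 to Cacna1a reads was 2.12, 2.03 and 1.96 in cKO libraries, against 2.87, 2.32 and 2.40 in control libraries. In both pairs the cKO ratios lay below the control ratios (exact permutation p = 0.1 each, 3 against 3). Those of Cacna1g to Cacna1a, 1.75, 1.54 and 1.50 in cKO and 1.80, 1.90 and 1.63 in control, overlapped (exact permutation p = 0.2). Pcp2 was lower by more than Cacna2d2: the ratio of Cacna2d2 to Pcp2 was 0.644, 0.478 and 0.409 in cKO libraries, against 0.353, 0.346 and 0.335 in control libraries (exact permutation p = 0.1).

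Every intron of the annotated coding transcript with the most exons was then followed through the reads that cross it, scaled for depth. Introns of a gene share the same libraries, so the counts below are a description, and the share over all introns was not taken. Cacna2d2 was lower in cKO along its whole length: 36 of its 38 introns had every cKO library below every control library, with a median log2 ratio of -0.84. The exceptions were introns 22 and 23, on either side of a 21-base exon, at 0.10 and 0.21 with overlapping groups. In Cacnb4 11 of 13 introns were lower in every cKO library, with a median of -0.40. In Cacna1a the ratio lay below 0 in 45 of 45 introns with enough reads, at a median of -0.24, and the groups did not overlap in 21 of them. In Cacna1g 28 of 37 introns were lower in every cKO library, with a median of -0.40, but 4 introns were higher in every cKO library: intron 25 at 1.33, intron 33 at 1.26, intron 34 at 1.25 and intron 35 at 0.99.

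**Figure D3:**
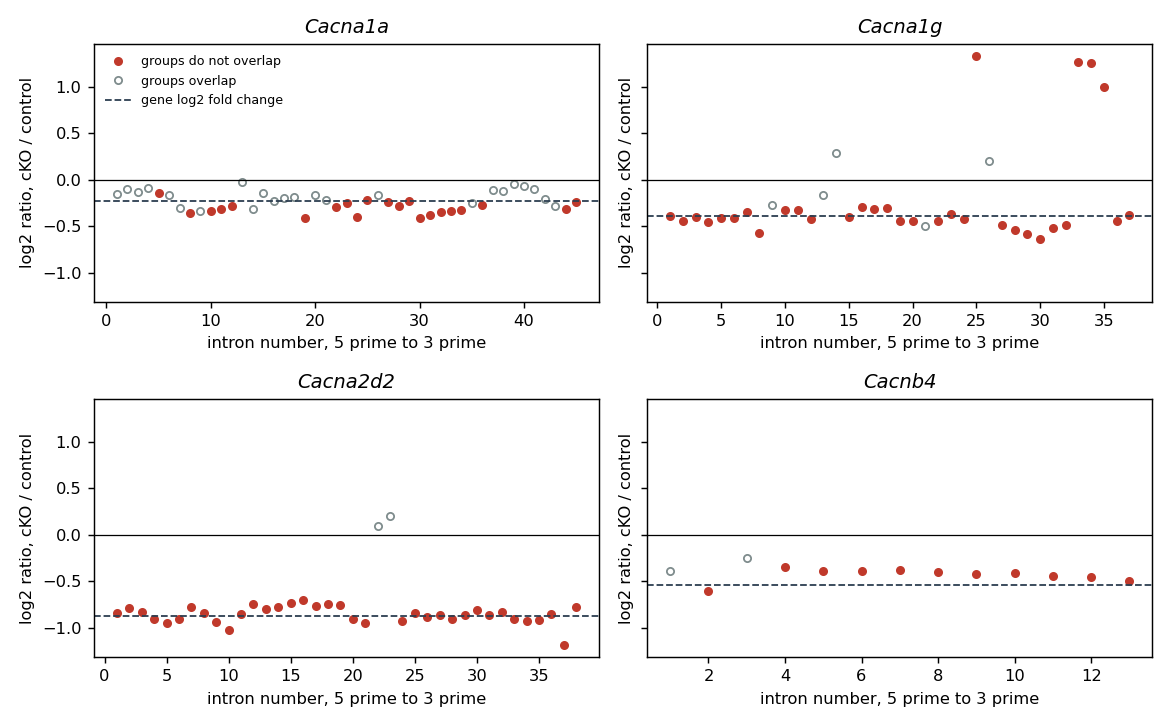
Log2 ratio of spliced reads, cKO over control, for each intron in order from the 5′ end to the 3′ end of 4 subunit genes; filled red points are introns whose groups do not overlap, and the dashed line is the gene's own log2 fold change. The introns of Cacna2d2 lie around -0.84 except introns 22 and 23, and in Cacna1g introns 25, 33, 34 and 35 lie near 1 or above it.

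These 4 introns of Cacna1g flank alternative exons of its transcript with 38 exons. Exons 34 and 35, known alternative exons in the part of the gene that encodes the intracellular C-terminal tail, are both skipped in most transcripts here. Exon 34 (chr11:94414931-94415074, minus strand, 144 bases) and exon 35 (chr11:94413090-94413224, 135 bases) have lengths that are multiples of 3, and they are shown because called junctions join exon 34 and exon 35 lies next to it. The sequences are from the GENCODE transcripts of build mm10, and capitals mark the first 39 bases of exon 34, which an unannotated acceptor inside the exon leaves out.
Cacna1g exon 34: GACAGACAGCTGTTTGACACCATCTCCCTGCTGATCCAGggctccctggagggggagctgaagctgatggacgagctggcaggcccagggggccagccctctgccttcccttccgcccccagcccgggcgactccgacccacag
Cacna1g exon 35: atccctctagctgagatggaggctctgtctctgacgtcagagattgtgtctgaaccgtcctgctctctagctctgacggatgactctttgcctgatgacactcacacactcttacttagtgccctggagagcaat

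Inclusion of exon 34 was 21.5%, 17.6% and 17.6% in cKO libraries, against 6.10%, 4.99% and 4.96% in control libraries. Every cKO library was well above every control library, with means of 18.9% ± 2.2 in cKO and 5.35% ± 0.65 in control (SD, n = 3 each; exact permutation p = 0.1, 2-sided, the smallest possible). Inclusion is the mean of the reads into and out of an exon, over that mean plus the reads that span it. Exon 35 was included in 7.63%, 8.99% and 6.68% of cKO transcripts, against 2.65%, 2.86% and 2.60% of control transcripts. It too was higher in all cKO libraries (exact permutation p = 0.1). Exon 35 reached the 5% minimum for a minor form in cKO libraries alone, so this is a description.

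The junction test compared each junction with the rest of its cluster, over 112047 junctions of all genes. A cluster joins junctions linked by a shared donor or acceptor, directly or through other junctions. A share of a cluster is therefore not the usage of a single splice site. A call needed an adjusted p under 0.05 and a change of at least 5 percentage points, and 0.751% of all junctions were called, 0.659% as higher in cKO. Inside the subunit genes 269 junctions were tested and 3 were called, all 3 as higher in cKO, of which 2 lie in Cacna1g and 1 in Cacnb2. Without the minimum change, 10 subunit junctions passed, all higher in cKO, against 2.27% of all junctions (2.02% as higher). These 10 lie in Cacna1g (4), Cacnb4 (3), Cacnb2 (2) and Cacna2d2 (1), and 6 of them are not in the annotation. The other 6 subunit genes, Cacna1a, Cacna1c, Cacna1d, Cacna2d1, Cacna2d3 and Cacnb3, held none.

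In Cacna1g the junction from exon 33 into exon 34 (chr11:94415075-94415742) had 839, 594 and 700 reads in cKO libraries, against 288, 272 and 211 in control libraries. It took 15.2% ± 1.2 of its cluster in cKO and 5.18% ± 0.83 in control (SD, n = 3 each; edgeR adjusted p = 3.1e-04). The junction from exon 34 straight to exon 36 (chr11:94411617-94414930), which the annotation lacks, had 550, 317 and 412 reads in cKO libraries, against 162, 129 and 140 in control libraries (edgeR adjusted p = 0.0010). Both rose, and both calls held in 6 of 6 fits that left out a library.

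The remaining junctions around these exons differed less firmly. Exon 34 to exon 35 had 279, 204 and 241 reads in cKO libraries, against 77, 114 and 75 in control libraries (edgeR adjusted p = 0.0230, under the 5-point minimum). Exon 35 to exon 36 had 302, 342 and 263 reads in cKO libraries, against 125, 160 and 118 in control libraries (edgeR adjusted p = 0.0399, also under the minimum). These adjusted p values stayed under 0.05 in 1 of 6 and 0 of 6 fits that left out a library. The direct junction from exon 33 to exon 36 had 2988, 2578 and 3153 reads in cKO libraries, against 4028, 4884 and 4009 in control libraries, and did not pass the test (edgeR adjusted p = 0.405). The acceptor inside exon 34, after the bases in capitals, had 50, 17 and 46 reads in cKO libraries, against 0, 0 and 8 in control libraries (edgeR adjusted p = 0.0842).

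Exon 26 of Cacna1g (54 bases), in the stretch that encodes the linker between domains III and IV, is joined to either of a pair of donors of exon 25 that lie 21 bases apart. The upstream donor, which makes the shorter exon 25, took 9.40%, 7.35% and 7.94% of the reads in cKO libraries, against 3.50%, 3.66% and 2.13% in control libraries. Inclusion of exon 26 was 7.80%, 7.33% and 10.2% in cKO libraries, against 4.86%, 4.12% and 3.78% in control libraries. Its ends differed in reads, with 86, 69 and 103 in and 166, 116 and 155 out in cKO libraries. Control libraries had 53, 27 and 17 in and 102, 121 and 100 out, so the reads out overlapped. By the end with fewer reads inclusion averaged 6.44% in cKO and 2.02% in control libraries. Exon 14 (69 bases) was included in 4.42%, 4.57% and 6.10% of cKO transcripts, against 3.15%, 3.57% and 4.21% of control transcripts. For the donor share and the inclusion of both exons every cKO library was above every control library (exact permutation p = 0.1 each). Both exons reached the 5% minimum for a minor form through cKO libraries alone. Mean inclusion was 8.43% in cKO and 4.26% in control for exon 26, and 5.03% and 3.65% for exon 14. These p values are therefore a description and no support. No junction of exon 14 or exon 26 was called (smallest edgeR adjusted p = 0.219, for exon 26).

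Cacna1a showed no called junction. Its best known alternative exons are a mutually exclusive pair of 97 bases each that encode an EF-hand-like segment of the C-terminal tail, exon 37 (chr8:84614695-84614791) and its partner (chr8:84615574-84615670), which are identical at 60 of 97 positions (61.9%). They are shown because the channel's splicing is usually described through them, and capitals mark the bases that differ.
Cacna1a exon 37: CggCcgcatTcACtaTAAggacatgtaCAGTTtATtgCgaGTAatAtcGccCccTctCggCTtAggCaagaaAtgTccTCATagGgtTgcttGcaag
Cacna1a partner exon: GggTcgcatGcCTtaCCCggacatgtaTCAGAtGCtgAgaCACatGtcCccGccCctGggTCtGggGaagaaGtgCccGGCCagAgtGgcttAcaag

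Exon 37 was used in 94.2%, 90.9% and 91.3% of cKO transcripts, against 94.3%, 91.8% and 93.0% of control transcripts. The partner exon was used in 5.87%, 8.62% and 8.32% of cKO transcripts, against 5.93%, 9.27% and 7.99% of control transcripts. The groups overlapped for both (exact permutation p = 0.5 and 0.9). Exon 2 was included in 95.5%, 94.5% and 94.9% of cKO transcripts, against 96.9%, 96.6% and 95.4% of control transcripts, also with overlap. An unannotated junction that skips the 36-base exon 44 had 36, 33 and 44 reads in cKO libraries, against 20, 27 and 21 in control libraries, and took 1.28% of its cluster in cKO and 0.708% in control (edgeR adjusted p = 1). The intron before the last exon, which encodes the polyglutamine tract in human CACNA1A, had 9, 9 and 7 reads in cKO libraries, against 4, 12 and 5 in control libraries, too few to be described.

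Across the 10 genes 23 alternative exons, in 8 of the genes, had a minor form of at least 5% in either group. In 7 of the 23 every cKO library had higher inclusion than every control library, in 0 lower, and in 16 the groups overlapped. Over the 7686 exons of all protein-coding genes that met the same rule, 11.4% were higher and 20.2% lower in this way. Of the 23 exons 9 met the 5% minimum in cKO libraries alone and 0 in control libraries alone. Among those 9 were 4 of the 7, namely Cacna1g exons 14, 26 and 35 and the 20-base exon of Cacnb2. The count is therefore a description. The 7 were the 4 exons of Cacna1g above and 1 each in Cacna2d2, Cacnb2 and Cacnb4. The 5 alternative exons of Cacna1c, the 6 of Cacna1d and the 1 of Cacna2d3 all overlapped, on few reads.

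**Figure D4:**
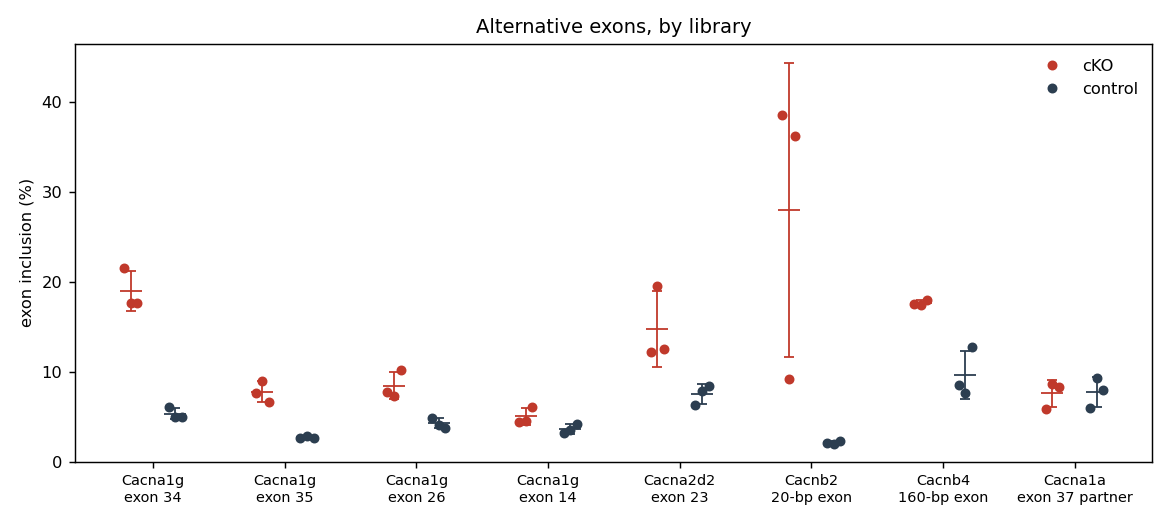
Inclusion in percent of 8 alternative exons in the 3 cKO libraries (red, left) and the 3 control libraries (dark, right), with each group's mean and SD. The groups do not overlap except for the partner of Cacna1a exon 37, and in the 20-bp exon of Cacnb2 cKO 2 stands far from the other cKO libraries.

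Cacna2d2 exon 23 (chr9:107519179-107519199, plus strand, 21 bases), also a multiple of 3 in length, lies between the 2 introns that stood apart in that gene.
Cacna2d2 exon 23: tgccaatcagcaaactgaagg
Its inclusion was 12.1%, 19.6% and 12.5% in cKO libraries, against 6.34%, 7.81% and 8.42% in control libraries. All cKO libraries were higher, with cKO 2 the highest (exact permutation p = 0.1). The junctions on its sides had 101, 153 and 71 and 114, 171 and 78 reads in cKO libraries, against 79, 96 and 98 and 86, 97 and 99 in control libraries, so the reads that include it overlapped while those of the other introns were lower. An unannotated junction from exon 21 to exon 25 (chr9:107517653-107524094), which leaves out exons 22 to 24 and 159 bases, had 44, 20 and 29 reads in cKO libraries, against 0, 2 and 2 in control libraries. It took 1.29% of its cluster in cKO and 0.035% in control, which passed the adjusted p threshold but not the 5-point minimum (edgeR adjusted p = 0.0063), and without cKO 1 its adjusted p was 0.112.

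Cacnb4 held the junctions with the smallest p of the 10 genes. They mark an exon of 120 bases (chr2:52451157-52451276, minus strand) between exons 11 and 12 that the annotation lacks and whose length is a multiple of 3. The junction into it had 158, 112 and 135 reads in cKO libraries, against 2, 5 and 5 in control libraries (edgeR adjusted p = 2.5e-07). The junction out of it had 88, 69 and 46 reads in cKO libraries, against 1, 2 and 4 in control libraries (edgeR adjusted p = 4.8e-05). The fewest reads in a cKO library were 46, at the end where the most in a control library were 4, and both adjusted p values stayed under 0.05 in 6 of 6 fits that left out a library. The exon remained a minor form, with inclusion of 2.68%, 1.83% and 1.71% in cKO libraries, against 0.023%, 0.064% and 0.084% in control libraries, so neither junction reached the 5-point minimum.

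Other changes in Cacnb4 lie between exons 2 and 3, in the long 5′ part of the gene. An annotated exon of 160 bases (chr2:52556202-52556361) was included in 17.5%, 17.4% and 18.0% of cKO transcripts, against 8.53%, 7.69% and 12.7% of control transcripts (exact permutation p = 0.1). Its ends differed in reads, and by the end with fewer reads in each library inclusion averaged 12.7% in cKO libraries and 7.91% in control libraries. Exon 2 was joined directly to exon 3 in 798, 720 and 886 reads in cKO libraries, against 1191, 1075 and 929 in control libraries (edgeR adjusted p = 0.333). An unannotated exon of 76 bases (chr2:52531122-52531197) received 13, 25 and 13 reads from exon 2 in cKO libraries, with no read listed in any control library (edgeR adjusted p = 0.0228; above 0.05 whenever 1 library was left out). Its junction out had 38, 60 and 17 reads in cKO libraries, against 0, 0 and 15 in control libraries (edgeR adjusted p = 0.103), so 1 control library held reads at that end. Inclusion of the 160-base exon was higher in all cKO libraries, whereas the direct junction was lower in all of them without passing the test.

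Over the 10 genes 9 unannotated exons, of 22 to 168 bases, could be drawn between neighbouring exons from pairs of unannotated junctions, 4 in Cacnb4, 4 in Cacna1a and 1 in Cacna1g. In 5 of the 9 inclusion was higher in every cKO library and in 0 lower. Over the 3291 such exons of all protein-coding genes 38.7% were higher in this way and 3.01% lower. A junction needed at least 10 reads over the 6 libraries, which cKO libraries alone could supply. An exon of 71 bases in Cacnb4, for example, had no control reads at either end. The counts are therefore a description. An exon of 22 bases between exons 38 and 39 of Cacna1a (chr8:84627520-84627541) was among the 5. Its junction in had 9, 0 and 19 reads in cKO libraries, against 0 in each control library (edgeR adjusted p = 0.189). Its junction out had 11, 29 and 20 reads in cKO libraries, against 0, 1 and 0 in control libraries (edgeR adjusted p = 0.0708). A 30-base exon between exons 31 and 32 of Cacna1a (chr8:84597480-84597509) was included at 2.34%, 5.32% and 3.39% in cKO libraries, against 4.31%, 4.48% and 4.13% in control libraries, with overlap.

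As a share of all junction reads of a gene, unannotated junctions took 1.19%, 1.15% and 1.28% of Cacnb4 reads in cKO libraries, against 0.284%, 0.199% and 0.372% in control libraries. They took 2.11%, 1.58% and 2.22% of Cacna1g reads in cKO libraries, against 1.08%, 0.947% and 1.35% in control libraries. Cacnb3, with few reads, had 1.07%, 0.373% and 0.345% in cKO libraries, against 0.113%, 0.165% and 0.212% in control libraries. In these 3 genes every cKO library was higher (exact permutation p = 0.1 each), and in the other 7 the groups overlapped. Over the 7057 protein-coding genes with at least 1000 junction reads in each library, the share was higher in every cKO library for 27.0% and lower for 2.22%, so 3 of 10 is near the background. Over all junction reads of a library, annotated junctions took 97.87%, 97.97% and 97.96% in cKO libraries, against 98.48%, 98.02% and 98.31% in control libraries.

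**Figure D5:**
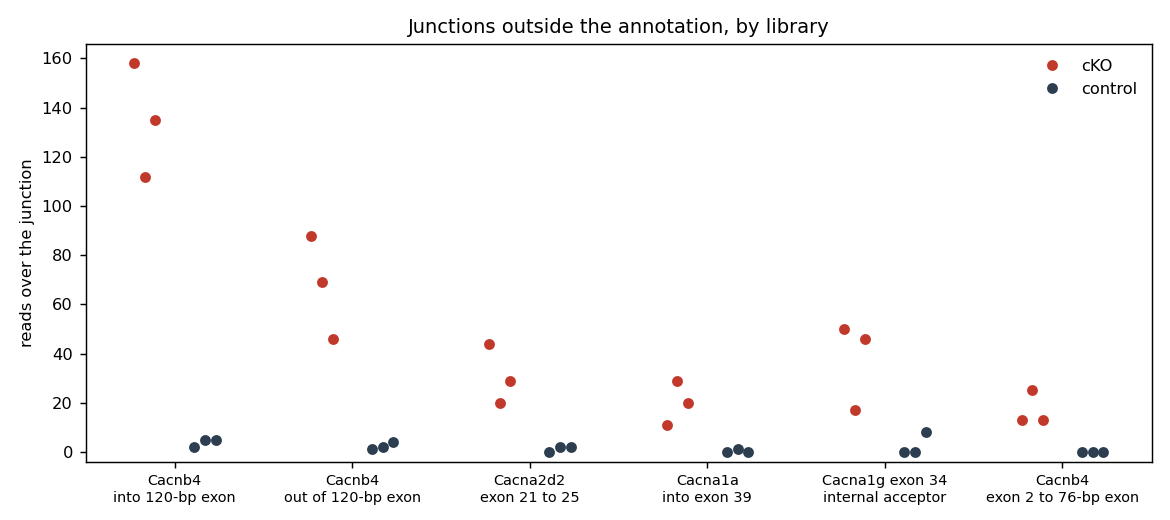
Reads over 6 junctions that are not in the annotation in the 3 cKO libraries (red, left) and the 3 control libraries (dark, right). At the 120-bp exon of Cacnb4 the cKO libraries hold 46 to 158 reads and the control libraries 1 to 5.

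Cacnb2 switches between exon 7 (134 bases) and an exon of 20 bases (chr2:14968218-14968237, plus strand), alternatives in the linker between the conserved domains of the beta subunit.
Cacnb2 20-base exon: caaagcagaagcagaagtcg
The junction from exon 6 into the 20-base exon (chr2:14963983-14968217) had 1945, 0 and 1957 reads in cKO libraries, with no read listed in the 3 control libraries. It was the third called junction (edgeR adjusted p = 0.0102), but it was high in cKO 1 and cKO 3 and had no reads in cKO 2. The call held only in the fit without cKO 2 (edgeR adjusted p = 4.2e-16), and the adjusted p was 0.192 without cKO 1 and 0.165 without cKO 3. The junction out of the same exon had 2076, 512 and 1963 reads in cKO libraries, against 199, 175 and 211 in control libraries, and did not pass the test (edgeR adjusted p = 0.296). In control libraries, and in cKO 2, reads thus left the exon with none entering it from exon 6, so the lists hold its ends unevenly. A further Cacnb2 junction (chr2:14874890-14958787) had 0, 2 and 145 reads in cKO libraries, against 0, 0 and 3 in control libraries, and its adjusted p of 0.0349 rests on cKO 3 (1 without it).

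The other genes of the pathway give the setting. Over all genes tested 4.03% were called as higher and 3.85% as lower in cKO. Of 7 further calcium channel subunit genes tested 1 rose and 0 fell. Cacnb1, the remaining beta subunit, had 13.4, 13.9 and 11.4 CPM in cKO libraries, against 7.45, 8.69 and 9.12 CPM in control libraries, a log2 fold change of 0.61 (SE 0.14, edgeR adjusted p = 0.0293). Of 6 genes of the gamma family 0 rose and 1 fell, Cacng2 (stargazin), a partner of AMPA receptors, with 146, 163 and 152 CPM in cKO libraries, against 251, 209 and 207 CPM in control libraries and a log2 fold change of -0.54 (SE 0.10, edgeR adjusted p = 0.0107). The median log2 fold change was 0.20 over the 7 and -0.04 over the 6.

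Of 36 partners and regulators of the channels 1 rose and 6 fell, against 4.03% and 3.85% of all genes tested. Their median log2 fold change was -0.21. The gene that rose, Rrad, encodes a small GTPase that binds beta subunits and stayed low. It had 1.53, 1.32 and 2.08 CPM in cKO libraries, against 0.489, 0.619 and 0.533 CPM in control libraries. Among those that fell were Ywhah, a 14-3-3 protein (log2 fold change -0.85), Bsn, a scaffold of the presynaptic active zone (-0.42), Gnao1, a G protein alpha subunit whose beta and gamma partners inhibit these channels (-0.51), and Stac (-0.60). Of 23 calcium-activated channels, stores, pumps and buffers 0 rose and 7 fell, with a median of -0.19. They included Kcnma1, the BK potassium channel that calcium entry opens (-1.02), Atp2a2, the SERCA pump (-0.81), Pvalb, a calcium buffer (-0.60), and Atp2b2, a plasma membrane calcium pump (-0.49).

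The genes whose levels over the 6 libraries ran closest to a member were sought among 9057 genes with a mean of at least 10 CPM. The measure was the root mean square of the difference in log2 CPM less the control mean. Nearest to Cacna2d2 were Nrip3 (0.039), Large (0.048) and Dpp10 (0.052). Nearest to Cacnb4 were Cacng2 (0.030), Rgs7bp (0.031) and Lmo7 (0.034), and nearest to Cacna1a were Tomm40 (0.019), Dynll1 (0.026) and Slc25a11 (0.027). A log2 fold change close to the member's follows from this measure, so it is no separate result. For Cacna2d2, at -0.87, those of Nrip3, Large and Dpp10 were -0.88, -0.82 and -0.90. This is a description over 6 libraries that differ by genotype.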

How the data were processed

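Ribosome-bound RNA from 3 cKO and 3 control cerebella was amplified with the NuGEN Ovation system and sequenced on Illumina instruments, per the labels' protocols. Build mm10, HTSeq 0.6.0 and TopHat2 2.1.0 come from the submitters' processing notes. Strand setting and annotation were not given in the sources used here, and 8 of the 10 genes have an annotated gene on the opposite strand. As deposited, the gene table holds raw counts and each library's TopHat list holds the counts of reads over each junction, both without normalization. Amplified reads are not independent molecules.

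The gene test was the quasi-likelihood test of edgeR 4.0.16 (R 4.3.3), after filterByExpr and TMM scaling and with no covariate, adjusted by Benjamini-Hochberg over 16067 genes. CPM use TMM-scaled library sizes. Junctions (at least 10 reads over 6 libraries, in at least 2 libraries) were tested with edgeR's diffSpliceDGE. Exon numbers follow the coding transcript with most exons in GENCODE, which shares the files' build. Introns with a mean under 20 reads over the 6 libraries were left out of the intron ratios. Exact permutation tests used SciPy 1.17.1. The alternatives were DESeq2 1.42.0, limma-voom (limma 3.58.1), other scalings and filters, a replicate block and leaving out each library. Gene and junction tests were tested on simulated data. Over all genes, samples with the same replicate number did not deviate together (correlations of 0.045, -0.062 and 0.021). These weak correlations do not settle whether the numbers pair the samples, and the main test did not pair them. P-values set the group difference against the spread between libraries. Each animal gave a single library, so differences between animals cannot be told apart from those of pull-down, amplification and sequencing.

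The members, lists and tests were chosen with earlier results of these data known. The genes named are the 10 members, from each pathway list up to 4 called genes with the smallest p, Pcp2, and the 3 genes nearest to Cacna1a, Cacna2d2 and Cacnb4. Rrad was named after its values were seen. The junctions named are those called and the alternative exons with a minor form of at least 5%, and any others were chosen after their values were seen.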

Additional observations from a re-analysis of the deposited data

How the results depend on the processing

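The calls of Cacna2d2, Cacnb4 and Cacna1g held under RLE and upper-quartile scaling, library sizes without the ribosomal RNA precursor, other count filters, DESeq2 and limma-voom, with 3 subunit genes called each time. With 1 library left out, 1 to 3 were called, and 1 without cKO 3. The sign turned for Cacna2d1 without cKO 1 (log2 fold change 0.033; range with 1 library left out -0.333 to 0.033) and for Cacnb3 without control 1 (-0.0598) and without cKO 2 (-0.0606; range -0.0606 to 0.339). The number of subunit junctions called was 2 with a minimum of 10 points, 10 with no minimum change, 3 with at least 30 reads and 2 to 4 with 1 library left out. With the smaller of both inclusion junctions 7 alternative exons did not overlap, and with 1 library left out 8 to 10. Smaller groups overlap less easily, so the higher counts are no sign of stability. The share over all alternative exons was not taken with a library left out. The difference in inclusion of the 160-base exon of Cacnb4 was 4.81 points by the smaller junction, against 7.98. Of the 10 places in the order of levels, 4 were kept with the longest coding transcript. Genes called over the whole table numbered 1265, against 2042 by DESeq2 and 530 to 1037 with 1 library left out. The causes were not tested.

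The replicate number as a block left 3 subunit genes called and gave 4 subunit junctions, with 1734 genes called over the whole table. Without the block 1265 genes were called, and whether replicate numbers pair the samples was not settled. Low reads limit Cacna1c, Cacna1d, Cacna2d1, Cacna2d3 and Cacnb3, whose exon shares rest on few reads.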
